A study of Drosophila melanogaster with 24 samples.

Results

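Gene expression of larvae that overexpress Manf was compared with that of wild type larvae in 6 whole-animal samples: overexpressing larvae 2 and 3 and wild type larvae 1, 2, 63 and 65, out of 24 samples on Agilent expression arrays. The series also holds mutant larvae, wild type embryos, embryos without maternal and zygotic Manf, and rescued embryos, whose mothers lacked Manf (D96) and whose fathers supplied a functional copy. The overexpressing larvae carried the 69B-GAL4 driver and a UAS-Manf transgene inserted on the third chromosome, and wild type larvae (Wmix) came from a cross of w1118 with w- flies; by the methods all genotypes were in a w- background. No sample of the driver or the transgene alone was analysed here. By the study's mapping the driver is active in the epidermis, the non-glial nervous system, discs, the ring gland and garland cells. It is silent in the fat body and in the gastric caeca of the gut. Overexpressing larvae 2 and 3 and wild type larvae 1 and 2 were collected 29 to 44 h after egg laying, and wild type larvae 63 and 65 at 30 to 45 h. The mutant larvae set beside them (zygotic MANF mutant D96) were of 29 to 50 h (larva 2) and 31 to 50 h (larva 4), and mutant larvae 65 and 66 of 30 to 44 h. The sample numbers fall into a low series of 1 to 4 and a high series of 63 to 88. The first comparison was therefore made against wild type larvae 1 and 2 of the same low series, and the second against all 4 wild type larvae.

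Overexpressing larvae 69 and 70 were left out, since their correlation with the other 22 samples was between 0.37 and 0.442, and 0.715 with one another. Among the other 22 samples it was between 0.886 and 0.994. Overexpressing larvae 2 and 3 correlated at 0.989, wild type larvae 1 and 2 at 0.992, and the samples of these pairs with one another at 0.974 to 0.983. Every wild type larva was labelled with Cy3 and overexpressing larvae 2 and 3 with Cy5, and therefore a dye effect and a genotype effect cannot be told apart. The label of mutant larvae 2 and 4 was Alexa488, so that the same holds for each contrast with them, and no measure of Alexa488 against the other dyes is given. The difference between Cy5 and Cy3 is given for wild type embryos 1 and 2 and for rescued embryos 1 and 2. These are the low series pairs that hold both dyes. Each such difference is that of 1 sample from 1 other, so that dye and sample cannot be told apart in it. It also comes from embryos and not from larvae. The values have limits at both ends. In wild type larva 63 the highest value, 15.06, was shared by 522 probes and in wild type larva 65 that of 15.22 by 151, against 3 to 8 probes in the other 4 samples, so that differences of the brightest probes from all wild type larvae are inexact. At the dim end 25% of the probes of each sample lay below 7.04 to 7.06, and the values carry no background flag. A difference with 1 group near that level may be understated. With 3 dyes samples can share an array, and which ones did is not given in the labels. Where a group of genes is lower in whole animals, fewer cells of a type and less RNA per cell cannot be told apart.

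MANF is a small protein of the endoplasmic reticulum that is also secreted. It supports dopaminergic neurons in mammals, and its fly homologue is needed for dopaminergic neurites and for larval survival. In mammalian cells MANF is induced by the unfolded protein response, the programme by which cells raise chaperones and slow translation when misfolded proteins accumulate in the endoplasmic reticulum. GAL4 is a yeast transcription factor that switches on any gene placed behind its UAS binding sites, so that the tissue pattern of the driver sets where Manf is made.

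The targeted gene was examined first. Manf (chromosome arm 3R) has 2 probes. At probe 10111 the log2 values were 14.23 and 14.40 in overexpressing larvae 2 and 3, 11.65 and 11.59 in wild type larvae 1 and 2, and 13.18 and 13.64 in wild type larvae 63 and 65. At probe 43955 they were 14.08 and 14.30, 11.23 and 11.49, and 12.40 and 13.09 in the same order. Overexpressing larvae were above each of the 4 wild type larvae at both probes, but the wild type larvae of the high series lay far above those of the low series. Against wild type larvae 1 and 2 Manf was upregulated by 2.69 ± 0.31 (log2 difference ± SE, 2 samples a group) at probe 10111 and by 2.83 ± 0.34 at probe 43955 (limma, adjusted p = 0.00567 and 0.00591). Against all 4 wild type larvae the differences were 1.80 ± 0.72 and 2.14 ± 0.64 and did not pass (adjusted p = 0.268 and 0.11). When a separate low against high series difference was fitted in larvae and in embryos, a setting chosen after seeing the data that called 1.45% of the probes, they were 2.85 and 3.05 and passed (adjusted p = 0.0008 and 0.00057). Leaving out any 1 of the 4 low series samples kept the size of the first difference, between 2.61 and 2.96 over both probes, but not the call (highest adjusted p = 0.0668 and 0.0703 at the 2 probes). With the dye as a covariate the low series differences were 2.83 and 3.02, with an adjusted p of 0.123 at both probes. The Cy5 minus Cy3 difference of Manf in embryos was between -0.23 and -0.11.

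Manf in the mutants also followed the number series. Mutant larvae 2 and 4 were at 10.67 and 10.46 at probe 10111, below wild type larvae 1 and 2. Their differences from wild type larvae 1 and 2, -1.06 and -1.16 at the 2 probes, did not pass (limma, adjusted p = 0.106 and 0.1). Mutant larvae 65 and 66 were at 12.48 and 13.50, above wild type larvae 1 and 2, with the first below and the second between wild type larvae 63 and 65. Overexpressing larvae exceeded the low series mutants by 3.75 ± 0.31 and 3.99 ± 0.34 at the 2 probes (adjusted p = 0.000772 and 0.000816), in a contrast that called 3.49% of all probes.

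**Figure D1:**
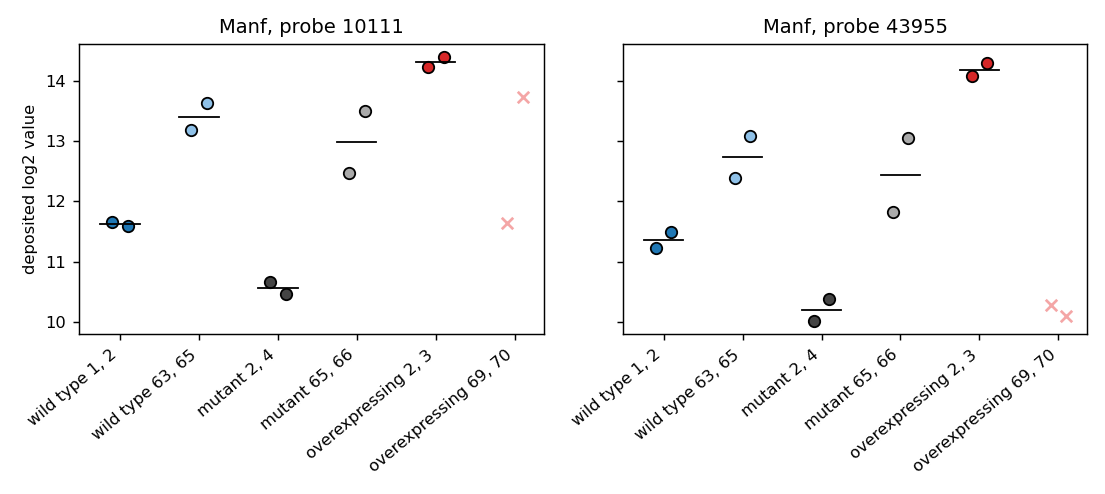
Log2 values of the 2 Manf probes (y axis) in each larval sample, with groups and sample numbers on the x axis; points are samples, bars are means of 2 samples, and crosses are overexpressing larvae 69 and 70, which were left out. Overexpressing larvae 2 and 3 are the highest samples at both probes, and wild type larvae 63 and 65 lie above wild type larvae 1 and 2.

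Of 45220 probes 212 differed from wild type larvae 1 and 2 at an adjusted p below 0.01, which is 0.469% of the probes. Of these 140 were upregulated (0.31%) and 72 downregulated (0.159%), and the named ones belong to 111 genes. Against all 4 wild type larvae 309 probes (0.683%) differed, 199 upregulated (0.44%) and 110 downregulated (0.243%), from 167 genes. The direction split was not stable: the higher ones were 66% of the called probes in the low series, but 51.8% at a threshold of 0.05, 52.6% with array weights and 52.2% in a fit of 22 samples with a mean for each group and series, and of all genes 3742 lay above and 3842 below both wild type larvae 1 and 2. Against all wild type larvae they were 64.4%, and 52.6% with larvae only. The comparisons share the overexpressing larvae and wild type larvae 1 and 2, and 107 probes were called in both of them. The median size of the called log2 differences in the low series was 1.87, and of all probes 0.216. Wild type larvae 63 and 65 did not enter the low series comparison. The 212 called probes all lay outside the range of wild type larvae 1 and 2, and 197 of them outside that of all 4. Of all probes 25826 lay outside the range of the first pair and 15641 of these (34.6% of all probes) outside that of all 4. Of the 140 upregulated probes, wild type larvae 63 and 65 lay on average more than 50% of the way from wild type larvae 1 and 2 to the overexpressing larvae at 28 probes, and of the 72 downregulated ones at 19.

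Of 12737 genes, each taken at its probe of highest mean, 60 (0.471%) differed in the low series, 46 upregulated (0.361%) and 14 downregulated (0.11%). Against all 4 wild type larvae 91 genes (0.714%) differed, 55 upregulated (0.432%) and 36 downregulated (0.283%). The counts changed when single samples were left out or the dye was fitted, settings that also lower the precision of each difference. Leaving out 1 of the 4 low series samples left between 2 and 5 called probes, MED11 and CG6000 among them each time. With dye as a covariate, which rests on embryos in the low series, 2 probes passed, MED11 and one without a gene name, and 33 passed against all 4 wild type larvae. The median size of the Cy5 minus Cy3 difference at the 212 called probes was 0.155 in wild type and 0.229 in rescued embryos, and at all probes 0.18 and 0.279. These embryo pairs entered the spread of the same fit, which favours calls at probes that differ little in them. The part of the dye in the calls was therefore not tested by these medians.

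**Figure D2:**
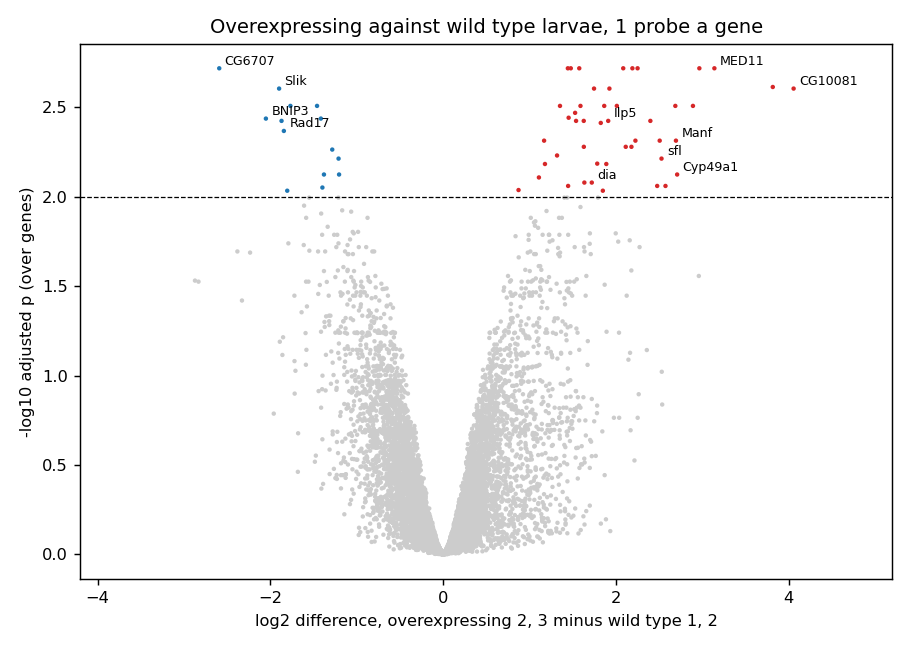
Log2 difference between overexpressing larvae 2 and 3 and wild type larvae 1 and 2 (x axis) against -log10 of the adjusted p over genes (y axis), 1 probe for each of 12737 genes. Red points are the 46 upregulated and blue points the 14 downregulated genes above the dashed line, an adjusted p of 0.01.

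In a first set of upregulated genes, mutant larvae of the low series were not called against wild type larvae 1 and 2, a contrast that called 0.86% of all probes. MED11, a subunit of the Mediator complex that links transcription factors to RNA polymerase II, was at 10.52 and 10.52 in overexpressing larvae, at 7.46 and 7.25 in wild type larvae 1 and 2, at 9.11 and 9.02 in wild type larvae 63 and 65, and at 7.36 and 7.18 in mutant larvae 2 and 4 (probe 40530). Wild type larvae 1 and 2 lay near the dim end of the scale. Overexpressing larvae were above all others, the high series wild type again lay between, and mutant and wild type larvae of the low series overlapped. MED11 was upregulated by 3.16 ± 0.13 in the low series (adjusted p = 0.000135), and its other probe by 3.14. Against mutant larvae it was higher by 3.25 ± 0.13 (adjusted p = 0.000107). Against all wild type larvae probe 40530 differed by 2.31 ± 0.56 (adjusted p = 0.036) and the other by 2.54 ± 0.46 (adjusted p = 0.00464). The Cy5 minus Cy3 difference of the latter was -0.17 in wild type and 0.66 in rescued embryos.

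Nf-YA encodes the subunit of the CCAAT-binding factor NF-Y that contacts DNA. Its values were 10.17 and 10.47 in overexpressing larvae, 7.32, 7.38, 8.02 and 7.99 in wild type larvae 1, 2, 63 and 65, and 7.24 and 7.33 in mutant larvae. It was upregulated by 2.97 ± 0.26 in the low series and by 2.64 ± 0.39 against all wild type larvae (adjusted p = 0.00233 and 0.000787). The values of wild type larvae 1 and 2 were near the dim end. The other Nf-YA probe differed by -0.39 and was not called, so that the rise was seen at 1 of 2 probes.

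CG10081 had the largest log2 difference of the low series, 4.18 ± 0.42 (adjusted p = 0.0035) with 4.06 at its second probe. Its values were 12.76 and 12.27 in overexpressing larvae, 8.69 and 7.97 in wild type larvae 1 and 2, and 10.42 and 10.09 in wild type larvae 63 and 65. Against all 4 wild type larvae the difference was 3.22 ± 0.72 and did not pass (adjusted p = 0.0244). Its Cy5 minus Cy3 difference was 0.95 in wild type and -0.76 in rescued embryos. CG6000, CG8204 and Naa20A, the catalytic subunit of an N-terminal acetyltransferase, behaved alike: they were upregulated by 3.36, 2.96 and 2.69 in the low series (adjusted p = 0.000274, 0.00199 and 0.00357) and did not pass against all wild type larvae (adjusted p = 0.158, 0.21 and 0.427). In wild type larvae 63 and 65 they were at 10.80 and 11.07, 10.88 and 10.74, and 11.75 and 11.94, well above wild type larvae 1 and 2. Mutant larvae 2 and 4 were at 9.27 and 9.09, 8.79 and 8.70, and 9.74 and 9.84, of which those of CG6000 lay above wild type larvae 1 and 2 (difference 0.50, adjusted p = 0.152). CG6000 was called at 2 of its 3 probes, with -0.44 at the other, and CG8204 at 1 of 2, with 2.36 at the other.

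Dhpr went furthest in this respect. It encodes dihydropteridine reductase, which regenerates the cofactor that tyrosine hydroxylase needs to make dopamine. It was at 10.07 and 10.06 in overexpressing larvae and at 7.66 and 7.33 in wild type larvae 1 and 2, but at 10.83 and 11.10 in wild type larvae 63 and 65. Wild type larvae 1 and 2 were near the dim end. Overexpressing larvae thus lay between the 2 pairs of wild type larvae. Dhpr was upregulated by 2.57 ± 0.34 in the low series (adjusted p = 0.00894) and differed by 0.84 ± 1.15 from all wild type larvae (adjusted p = 0.803).

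CG15155 and Jig kept clear of the wild type larvae of both series. CG15155 was at 11.66 and 11.21 in overexpressing larvae and at 8.56, 8.41, 8.69 and 9.11 in wild type larvae, a difference of 2.74 ± 0.28 from all 4 (adjusted p = 2.03e-05), and its other probe gave 2.65. Jig was at 12.03 and 11.99 against 9.37, 9.21, 7.94 and 8.17 (3.34 ± 0.36, adjusted p = 4e-05). Mutant larvae 2 and 4 were at 8.57 and 9.19 for CG15155 and at 9.06 and 9.05 for Jig. Both genes were also called against all wild type larvae with dye as a covariate. CG32572, named after its values were seen, is represented by 10 probes with log2 differences between 1.85 and 2.28 in the low series, and 9 of the 10 were called there and 9 of 10 against all wild type larvae. Its probes were near the dim end in wild type larvae 1 and 2.

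Further upregulated genes with known roles were named after their values were seen. Pen, an importin alpha that carries proteins into the nucleus, was at 13.17 and 12.99 in overexpressing larvae and between 11.18 and 11.32 in the 4 wild type larvae (1.84 ± 0.29 against all, adjusted p = 0.0017). It was called at 1 of its 4 probes, and the others differed by 0.50 to 1.31. The gene wus encodes Wurst, a transmembrane J-domain protein needed for clathrin-mediated endocytosis in the trachea. It was at 12.11 and 11.57 against 9.60, 9.13, 10.35 and 10.27 in wild type larvae (2.48 ± 0.33 in the low series, adjusted p = 0.00894; 0.00399 against all). In mutant larvae Pen was at 11.86 and 11.70 and wus at 9.72 and 9.25. Mis12, a kinetochore protein, was at 8.66 and 8.89 against 7.59 to 7.82 (1.10 ± 0.17 against all, adjusted p = 0.00114).

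**Figure D3:**
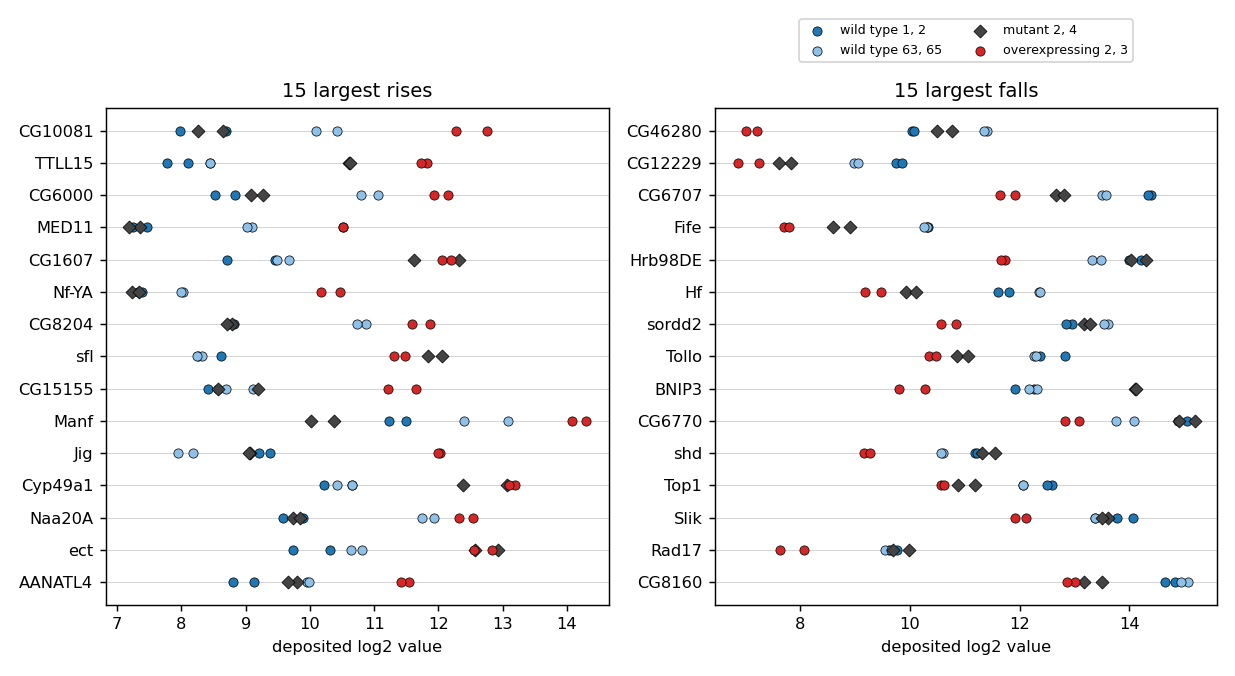
Log2 values (x axis) of the 15 genes with the largest rises and the 15 with the largest falls in the low series, 1 probe a gene (y axis). Circles are overexpressing larvae 2 and 3 (red), wild type larvae 1 and 2 (dark blue) and wild type larvae 63 and 65 (light blue), and diamonds are mutant larvae 2 and 4. Values of different genes are from different probes and are not comparable; the overexpressing larvae lie outside all 4 wild type larvae in each row, by the rule that chose the genes.

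A second set of genes was high in overexpressing larvae and high in mutant larvae as well. Both comparisons with wild type use wild type larvae 1 and 2, and therefore the overexpressing larvae were also tested against the mutants directly. The gene sfl (sulfateless) encodes the N-deacetylase and N-sulfotransferase that modifies heparan sulfate, the sugar chain to which many growth factors bind. It was at 11.31 and 11.48 in overexpressing larvae, at 12.05 and 11.84 in mutant larvae 2 and 4, and at 8.62, 8.26, 8.31 and 8.24 in the 4 wild type larvae. It was upregulated by 3.04 ± 0.22 against all wild type larvae (adjusted p = 8.31e-07), with 2.74 at its second probe. The Cy5 minus Cy3 difference in embryos was -0.65 and -0.66. Mutant larvae differed from wild type larvae 1 and 2 by 3.51 (adjusted p = 0.00488). The difference between overexpressing and mutant larvae was -0.55 ± 0.29 and did not pass (adjusted p = 0.288).

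TTLL15, of the tubulin tyrosine ligase-like family, was at 11.82 and 11.73 in overexpressing larvae, at 10.61 and 10.62 in mutant larvae, and at 8.11, 7.78, 8.45 and 8.45 in wild type larvae. It was upregulated by 3.83 ± 0.44 in the low series and by 3.58 ± 0.42 against all wild type larvae (adjusted p = 0.00553 and 9.7e-05). The Cy5 minus Cy3 difference of this probe was -0.13 in wild type and -1.74 in rescued embryos, and the direct difference from the mutants of 1.16 ± 0.44 did not pass (adjusted p = 0.135). Mutant minus wild type larvae was 2.67 for TTLL15 and did not pass (adjusted p = 0.0151). Cyp49a1, a cytochrome P450, was upregulated at both of its probes by 2.65 ± 0.37 and 2.89 ± 0.42 against all wild type larvae (adjusted p = 0.000446 and 0.000678), from values of 13.08 to 13.35 in overexpressing larvae against 9.92 to 10.77 in wild type. Mutant larvae 2 and 4 were between 12.39 and 13.07.

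The formin gene dia, whose product nucleates actin filaments in cytokinesis, was at 11.28 and 11.26 in overexpressing larvae, 11.66 and 11.98 in mutant larvae, and 9.51, 9.59, 9.84 and 9.60 in wild type larvae (1.63 ± 0.26 against all, adjusted p = 0.00203). The gene zld encodes Zelda, the factor that opens chromatin at the onset of zygotic transcription in the embryo. It was at 11.80 and 11.71, 11.62 and 11.13, and 9.89, 9.74, 9.33 and 9.39 in the same order (2.17 ± 0.27, adjusted p = 0.00016), with 2.13 at its other probe. The direct differences from mutant larvae were -0.56 ± 0.22 for dia and 0.38 ± 0.21 for zld and did not pass (adjusted p = 0.159 and 0.304). CG1607 was upregulated at 1 of its 3 probes by 2.79 (adjusted p = 4e-05), and its other 2 probes differed by -0.27 and -0.19.

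For Ilp5 and LBR the wild type larvae lay between overexpressing and mutant larvae, although the mutants did not pass against wild type (differences -1.27 and -1.26, adjusted p = 0.0144 and 0.0312). Ilp5 is an insulin-like peptide of the insulin-producing cells of the brain. It was at 11.60 and 11.24 in overexpressing larvae, at 9.36, 9.67, 9.80 and 9.88 in wild type larvae and at 8.08 and 8.40 in mutant larvae 2 and 4. It was upregulated by 1.91 ± 0.21 in the low series and 1.75 ± 0.31 against all wild type larvae (adjusted p = 0.00425 and 0.00423), and differed from mutant larvae by 3.18 ± 0.21 (adjusted p = 0.000629). Its second probe differed by 1.49 from all wild type larvae and was not called. LBR, the lamin B receptor of the inner nuclear membrane, was at 12.41 and 12.44 in overexpressing larvae, between 10.58 and 10.84 in wild type larvae, and at 9.56 and 9.39 in mutant larvae. It was upregulated against all wild type larvae by 1.71 ± 0.29 (adjusted p over genes = 0.00345) and differed by 1.70 ± 0.26 in the low series, which did not pass (adjusted p over genes = 0.016). LBR was called at 1 of its 3 probes, and the others differed by 0.57 to 1.18 from all wild type larvae.

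Among downregulated genes, BNIP3 moved the other way. BNIP3 is a mitochondrial outer membrane protein that in mammals promotes removal of mitochondria and cell death. It was at 9.80 and 10.27 in overexpressing larvae, at 12.25, 11.92, 12.31 and 12.18 in wild type larvae and at 14.09 and 14.13 in mutant larvae. It was downregulated in the low series (-2.05 ± 0.22, adjusted p = 0.00407) and against all wild type larvae (-2.13 ± 0.40, adjusted p = 0.00691), and differed from the mutants by -4.08 ± 0.22 (adjusted p = 0.000528). GILT3, of the lysosomal thiol reductase family, and the odorant-binding protein gene Obp18a, named after their values were seen, had the same order: GILT3 was at 11.02 and 11.38 in overexpressing, 12.29 to 12.46 in wild type and 13.42 and 13.32 in mutant larvae, and Obp18a at 8.56 and 8.55, 9.71 to 10.16, and 10.68 and 10.56.

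For several downregulated genes mutant larvae were not called against wild type. The gene shd (shade) encodes the P450 enzyme that turns ecdysone into the active moulting hormone 20-hydroxyecdysone. Its values at probe 21897 were 9.14 and 9.53 in overexpressing larvae, 11.21, 11.20, 10.86 and 10.74 in wild type larvae and 11.60 and 11.21 in mutant larvae. It was downregulated by a log2 difference of -1.87 ± 0.21 in the low series and -1.67 ± 0.24 against all wild type larvae (adjusted p = 0.0046 and 0.000558), and its second probe gave -1.99. Rad17, of the clamp loader in the DNA damage checkpoint, was at 8.06 and 7.63 against 9.77, 9.62, 9.55 and 9.65 in wild type larvae (-1.80 ± 0.20 against all, adjusted p = 4e-05).

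Slik, a kinase that activates the membrane linker Moesin, and Hrb98DE, an RNA-binding protein of the hnRNP family, were downregulated at 1 probe each. Slik was at 11.91 and 12.12 in overexpressing larvae against 14.06, 13.76, 13.36 and 13.36 in wild type larvae (-1.63 ± 0.26 against all, adjusted p = 0.00163), and its other probe differed by 0.06 in the low series. Hrb98DE was at 11.73 and 11.66 against 14.21, 13.99, 13.31 and 13.47 (-2.05 ± 0.34 against all, adjusted p = 0.00265), and its other 5 of 6 probes differed by -0.36 to 0.07. The largest fall among these genes, that of CG46280 (-2.95 ± 0.36 in the low series, adjusted p = 0.00699), was likewise at 1 of 4 probes, with 0.27 to 0.35 at the others and overexpressing larvae at 7.20 and 7.01, at the dim end. Of the 111 genes called in the low series 98 have several probes, of which 20 were called at all their probes, 76 had 1 sign at all of them, and 33 had a probe with a difference below 0.5 in size.

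Further downregulated genes had low values in mutant larvae as well, measured against the same wild type larvae 1 and 2. Mutant larvae passed against these for Fife (-1.56, adjusted p = 0.00488) and not for Tollo (-1.64, adjusted p = 0.0185) or CG12229 (-2.08, adjusted p = 0.0196). Fife encodes a scaffold protein of the presynaptic active zone that promotes neurotransmitter release. It was at 7.70 and 7.79 in overexpressing larvae, 8.59 and 8.91 in mutant larvae 2 and 4, and 10.32, 10.30, 10.30 and 10.26 in wild type larvae. In mutant larvae 65 and 66, labelled with Cy5, it was at 9.91 and 9.59, nearer to wild type. It was downregulated by -2.57 ± 0.16 in the low series and -2.55 ± 0.34 against all wild type larvae (adjusted p = 0.000854 and 0.000272), and was also lower than in the mutants (adjusted p = 0.00705). Its second probe was called against all wild type larvae alone (-2.64 ± 0.48, adjusted p = 0.00559). Tollo, a Toll family receptor, was at 10.34 and 10.47, with 10.86 and 11.05 in mutant larvae and 12.83, 12.37, 12.25 and 12.30 in wild type larvae (-2.03 ± 0.33 against all, adjusted p = 0.00218). It was called at 1 of 4 probes. At probe 38282 CG12229 was at 6.86 and 7.25, at the dim end, against 9.75, 9.85, 8.97 and 9.06 in wild type and 7.61 and 7.82 in mutant larvae, and 2 of its 3 probes were called against all wild type larvae. Mutant larvae 65 and 66 were at 6.71 and 6.83 for CG12229 and at 10.93 and 10.85 for Tollo. The gene nau, the fly homologue of the MyoD family of muscle regulators, was named after its values were seen. It was at 9.49 and 9.35 in overexpressing larvae, 8.95 and 9.18 in mutant larvae, and 10.74 to 10.91 in wild type larvae (-1.41 ± 0.15 against all, adjusted p = 2.65e-05).

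The comparison with all wild type larvae added genes that the low series did not call. The gene spz5 encodes a Spätzle family ligand of Toll receptors, also called Drosophila neurotrophin. It was at 11.28 and 11.09 in overexpressing larvae and at 7.54, 7.91, 8.61 and 8.42 in wild type larvae. Mutant larvae 2 and 4 lay far apart at 7.54 and 10.28, and mutant larvae 65 and 66 were at 8.02 and 7.85. The gene spz5 was upregulated by 3.06 ± 0.54 (adjusted p = 0.00407) and called at 2 of its 3 probes. Of downregulated genes, C1GalTA, the galactosyltransferase that builds core 1 mucin-type O-glycans, was at 8.57 and 8.48 against 10.70 to 10.98 (-2.36 ± 0.30, adjusted p = 0.00021). Its other 3 probes differed by -0.08 to 0.35 in the low series. The odorant-binding protein gene Obp47a was at 9.15 and 7.93 against 10.62 to 10.92 (-2.20 ± 0.27, adjusted p = 0.000125).

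Genes were then grouped by pathway, each taken at its brightest probe on average, and here the adjusted p is over genes and not over probes. Of all genes 0.471% passed in the low series and 0.714% against all wild type larvae. At that share lists of these sizes would hold few called genes or none. Of 29 chaperones and folding enzymes of the endoplasmic reticulum none passed in either comparison. Their median log2 difference was 0.11 in the low series and -0.15 against all wild type larvae, where all genes had 0.0020 and -0.00865. The brightest members, the cyclophilin CG2852 and Gp93, differed by 0.91 ± 0.30 and 0.31 ± 0.31 in the low series, and 4 of the 29 were at the highest value of wild type larva 63. Hsc70-3, the fly BiP, named after its values were seen, was at 14.51 and 14.84 in overexpressing larvae, 12.97 and 13.34 in wild type larvae 1 and 2 and 14.87 and 14.54 in wild type larvae 63 and 65. It differed by 1.52 ± 0.28 in the low series and by 0.74 ± 0.60 from all wild type larvae, and passed in neither (adjusted p = 0.0298 and 0.626). Pdi, a disulfide isomerase also named after its values were seen, differed by 1.43 ± 0.26 in the low series and did not pass (adjusted p = 0.0299), and it was at the highest value in wild type larva 63. Of 23 genes of the unfolded protein response and of degradation from the endoplasmic reticulum, 23 SNAREs and exocytosis genes, 34 of endocytosis and 31 V-ATPase subunits none passed either, with medians between -0.09 and -0.0094 in the low series. The V-ATPase subunit Vha100-1, named after its values were seen, was at 7.01 and 7.01 in overexpressing larvae, at the dim end. In wild type larvae it was at 9.34, 9.15, 9.77 and 9.79. It differed by -2.2 ± 0.4 in the low series and by -2.5 ± 0.6 from all wild type larvae (adjusted p = 0.0205 and 0.0311).

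Lysosomal genes had a median of -0.23 in the low series and -0.32 against all wild type larvae, with 12 of 40 above 0 in the latter. Against this background CG5731, of the alpha-galactosidase family, was upregulated by 1.45 ± 0.19 in the low series (adjusted p over genes = 0.00869), from values of 11.22 and 11.32 against 10.00 and 9.66. The beta-galactosidase gene Gal was at 10.49 and 9.88 against 9.01, 8.89, 9.17 and 9.23, and was upregulated against all wild type larvae by 1.11 ± 0.17 (adjusted p over genes = 0.000989). Both were at similar levels in mutant larvae, with direct differences of 0.12 and -0.03 (adjusted p = 0.75 and 0.947).

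Of the genes of growth and translation few passed alone. Cytosolic ribosomal proteins had a median of 0.40 in the low series and 0.39 against all wild type larvae, with 31 and 30 of 42 above 0 and none called, and 10 of the 42 were at the highest value of wild type larva 63. Their Cy5 minus Cy3 median was -0.31 in wild type and 0.55 in rescued embryos. Ribosome biogenesis genes had 0.37 and 0.15, with 28 and 19 of 33 above 0. Mitochondrial ribosomal protein mRpS17 was upregulated against all wild type larvae by 1.79 ± 0.35 (adjusted p = 0.00902) and was as high in mutant larvae (12.08 and 11.94 against 11.82 and 11.83). Mitotic cell cycle genes had medians of 0.17 and 0.28, and 1 of 33, the kinesin gene Klp68D, was upregulated, by 1.04 ± 0.19 against all wild type larvae (adjusted p = 0.00504), where 0.432% of all genes were. It was at 11.02 and 10.87 against 9.80 to 10.09, and its other probe differed by 0.18 in the low series. Receptor tyrosine kinases and the MAP kinase cascade had medians of -0.26 and -0.19 and none of 34 was called.

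In the low series the highest group medians were those of Osiris and Tweedle genes, while against all wild type larvae the digestive proteases had a higher one (0.47). Osiris genes, a clustered insect family active when cuticle is made, had 0.81 in the low series and 0.42 against all wild type larvae, with 19 and 20 of 24 above 0. Osi4 was at 8.82 and 8.79 against 7.12 to 7.41 in the 4 wild type larvae and Osi10b at 9.17 and 8.91 against 7.35 to 8.13. The wild type values of Osi4 were near the dim end. Both were upregulated against all wild type larvae, by 1.54 ± 0.22 and 1.31 ± 0.23 (adjusted p = 0.000762 and 0.00377). They were the 2 of 24 called there, where 0.432% of all genes were upregulated. From mutant larvae 2 and 4 they differed by 1.94 and 1.06. Tweedle cuticle proteins had 0.79 and 0.44, with 20 and 22 of 25 above 0 and none called. The median Tweedle value was 12.19 in wild type larva 1 and 13.96 in wild type larva 2, next to 13.83 and 13.89 in overexpressing larvae 2 and 3, so that wild type larva 1 was the low sample. Osi2, named after its values were seen, was likewise at 11.09 and 14.92 in wild type larvae 1 and 2. Of 84 Cpr cuticle proteins Cpr49Ah was upregulated against all wild type larvae (1.13 ± 0.18, adjusted p = 0.00169), where 0.432% of all genes were, and the median was 0.07 in the low series.

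Digestive proteases of the Jonah and trypsin families had medians of 0.44 and 0.47, with 26 and 27 of 32 above 0 and none called, and 3 of the 32 were at the highest value of wild type larva 63. Among the brightest, yip7 differed by 0.57 ± 0.24 and Jon66Cii by 0.85 ± 0.24 in the low series. The summed level of 22 midgut markers moved with them: it was 18.85 and 19.02 in overexpressing larvae, 18.12 to 18.64 in wild type larvae and 19.01 and 19.04 in mutant larvae (log2 of summed intensities). Many of the markers are the same proteases, and the part of gut content in these values was not tested. Glycolysis genes had medians of -0.28 and -0.26, with 3 of 17 above 0 against all wild type larvae, and none called. Of the 17, 5 were at the highest value of wild type larva 63 and 4 at that of wild type larva 65, so that the second median is inexact.

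Ion channels, receptors and synaptic genes had medians of -0.30 and -0.36, with 10 and 12 of 40 above 0, and axon guidance genes -0.30 and -0.02. None of 40 and of 35 was called, where 0.471% of all genes were in the low series and 0.714% against all wild type larvae. Neuropeptide precursors had -0.05 and -0.11, with 15 and 13 of 31 above 0, of which Ilp5 was called. Sap47, a synapse-associated protein, and Gad1, which makes GABA, the brightest of the first group, differed by -0.63 ± 0.20 and -0.87 ± 0.20 in the low series (adjusted p = 0.154 and 0.0575). The summed level of 9 neuronal markers was 14.83 and 15.07 in overexpressing larvae and 15.18 to 15.29 in wild type larvae, that of 7 glial markers 15.21 and 15.13 against 15.60 to 15.78, and that of 6 muscle markers 16.78 and 16.87 against 17.11 to 17.20. In mutant larvae 2 and 4 the neuronal sum was low as well, at 14.923 and 14.885. Their glial sum was 15.71 and 15.54 and their muscle sum 17.13 and 17.08. In each of these 3 lists 1 marker was above 0 in the low series and none was called. The part of these levels in the falls of Fife and nau was not tested. Summed markers of fat body were 16.40 and 16.36 against 16.44 to 16.65, and of blood cells 15.21 and 15.04 against 14.99 to 15.19. In 9 markers of epidermis, where 69B-GAL4 is active, and of trachea the sum was 16.90 and 16.82 against 16.38 to 16.79, and in 7 nephrocyte markers 13.34 and 13.63 against 13.29 to 13.64. Salivary gland (12.37 and 12.50 against 12.37 to 12.81), ovary and testis markers had none called.

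**Figure D4:**
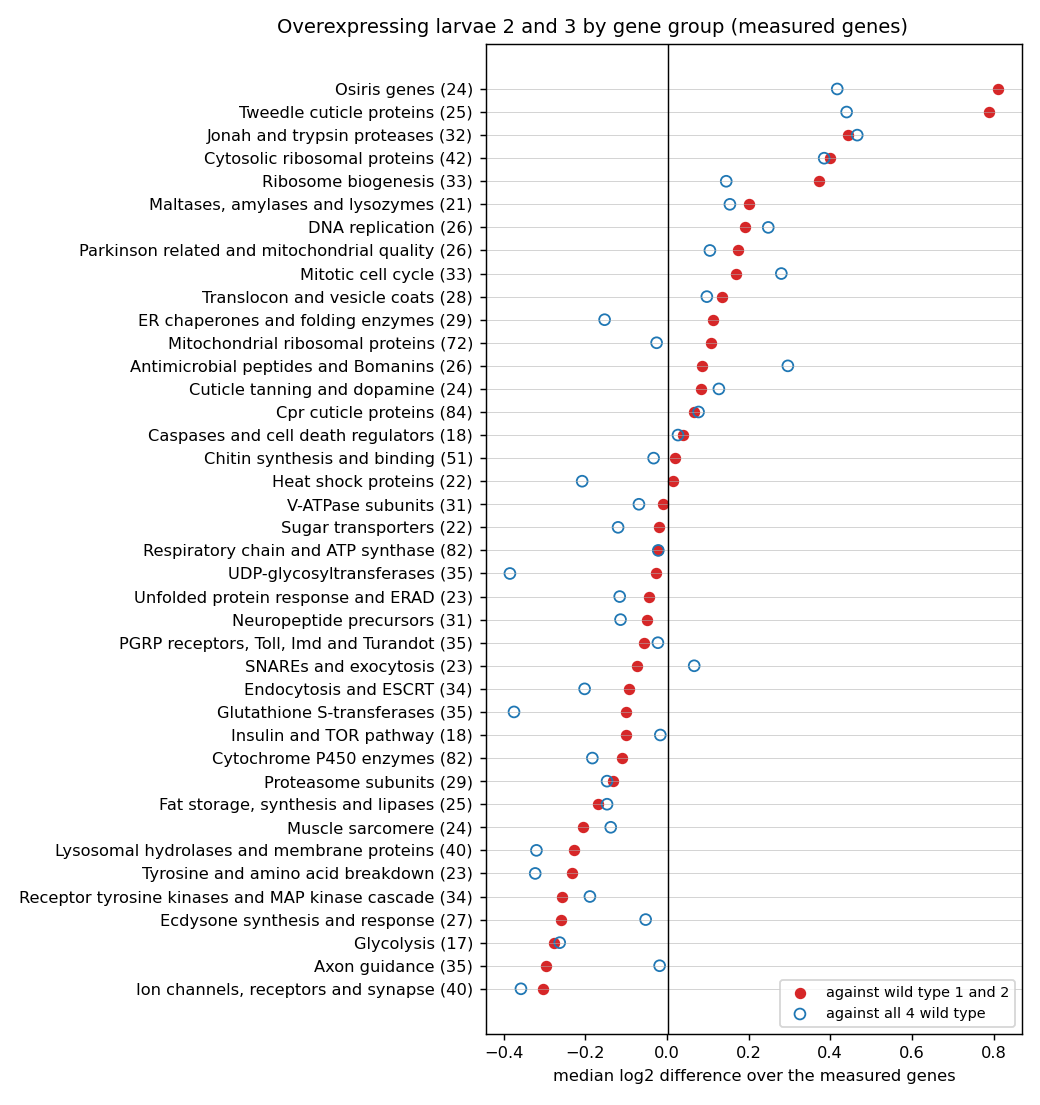
Median log2 difference over the measured genes of each group (x axis) in overexpressing larvae 2 and 3, against wild type larvae 1 and 2 (filled red) and against all 4 wild type larvae (open blue), with the number of measured genes in brackets; the vertical line is the median of all genes in the low series. Osiris and Tweedle genes lie at 0.81 and 0.79 in the low series and at 0.42 and 0.44 against all wild type larvae, and glycolysis and synaptic genes lie below 0 in both.

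Enzymes of detoxification had medians below 0 in both comparisons. Against all wild type larvae the median was -0.18 over 82 cytochrome P450 genes, -0.38 over 35 glutathione S-transferases and -0.39 over 35 UDP-glycosyltransferases, with 54, 26 and 26 members below 0, where all genes had a median of -0.00865. In the low series the medians were -0.11, -0.10 and -0.03, with 46, 18 and 20 members below 0. Their Cy5 minus Cy3 medians in wild type and rescued embryos were -0.066 and -0.084 for cytochrome P450 genes and 0.195 and -0.382 for glutathione S-transferases. For UDP-glycosyltransferases they were -0.213 and -0.324, of the same sign as the medians above. Of 82 cytochrome P450 genes 3 were upregulated and 1 was downregulated against all wild type larvae, where 0.432% and 0.283% of all genes were: Cyp49a1, Cyp28d2 (1.39 ± 0.23, adjusted p = 0.00217), Cyp6a17 (2.10 ± 0.40, adjusted p = 0.00668) and Cyp9c1 (-1.86 ± 0.29, adjusted p = 0.00144). Cyp9c1 was at 10.69 and 10.90 against 12.33 to 12.94 in wild type and 12.87 and 12.75 in mutant larvae, and Cyp28d2 at 12.19 and 12.56 against 10.86 to 11.07 and at 13.20 in both mutants. Cyp6a17 had a Cy5 minus Cy3 difference of 0.92 in wild type and 0.20 in rescued embryos. Among UDP-glycosyltransferases Ugt302E1 was downregulated in both comparisons (-1.40 ± 0.18 and -1.42 ± 0.20, adjusted p = 0.00887 and 0.000484). Of 27 genes of ecdysone synthesis and response shd was the one called, and of 18 genes of insulin and TOR signalling Ilp5, where 0.471% of all genes were called in the low series and 0.714% against all wild type larvae. In cuticle tanning and dopamine metabolism Dhpr was called in the low series and yellow-e3, of the yellow family, against all wild type larvae (1.15 ± 0.19, adjusted p = 0.00282). Of 26 antimicrobial peptides, 35 genes of Toll, Imd and Turandot, 22 heat shock proteins, the glutathione S-transferases, 26 DNA replication genes, 29 proteasome subunits and 82 of the respiratory chain none was called.

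Of the genes that the study names for overexpressing larvae 36 were measured here, and since the study chose them on samples of this series their direction is no independent evidence. In the low series 3 passed (Manf, dia and Ilp5) and against all wild type larvae 4 (dia, Klp68D, Ilp5 and LBR), all upregulated, where 0.471% and 0.714% of all genes were called. The others were not called. In the low series Vha16-1, a proton pump subunit, differed by 0.23 ± 0.41 and BI-1 by -0.27 ± 0.13. The study gave the first as downregulated and the second as upregulated. Both signs were opposite here, but neither difference passed and that of Vha16-1 was smaller than its SE, so that the signs do not contradict the study. Rop, which binds syntaxin at the synapse, differed by 0.40 ± 0.21. The gene nol differed by 1.53 ± 0.67 with wild type larvae 1 and 2 at 10.7 and 12.8. The study gave Rop and nol as upregulated.

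The called genes lay on all large chromosome arms. Against all wild type larvae 0.658% of the genes of arm 2L, 0.751% of 2R, 0.991% of 3L, 0.821% of 3R and 0.366% of X were called, and in the low series 0.527%, 0.672%, 0.578%, 0.361% and 0.314%. None of the 68 genes of chromosome 4 was called. These shares are a description, as neighbouring genes were not tested together, and the UAS-Manf insertion is known here to chromosome level.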

How the data were processed

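The authors labelled total RNA with Cy3, Cy5 or Alexa488, hybridised it to Agilent arrays, read the spots (median intensity) in GenePix Pro, and used limma for preprocessing; its version and normalization are not given in the sources used here. The deposited log2 values of 45220 probes in 24 samples, with 0 missing and sample medians of 9.15 to 9.16, were used unchanged. The number of samples limits the precision. By the platform annotation 29872 probes carry 1 gene name and 15348 none.

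Comparisons were made with limma 3.58.1 in R 4.3.3: lmFit on group means and eBayes, Benjamini-Hochberg over all probes, threshold 0.01, over the 12 low series samples or over 22 samples without overexpressing larvae 69 and 70. All 6 groups share the spread; p values measure the spread between samples, which may be technical. Scripts were tested on simulated data. Named genes are the 15 largest changes each way outside all 4 wild type larvae, Manf, w (not found among the named probes), the genes the study names, and called or the 2 brightest members of each list; others are marked. Members and lists were chosen with earlier results of these data known. Wrong symbol matches were removed from the lists after values were seen. Alternatives are given in the closing section.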

Additional observations from a re-analysis of the deposited data

Results flagged for a closer look

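In overexpressing larva 70, which entered no comparison, Manf was at 13.74 at probe 10111, just above the wild type larvae at 11.59 to 13.64, and at 10.09 at probe 43955, below them. Overexpressing larva 69 was at 11.65 and 10.28. In larvae 2 and 3 the 2 probes were both above all wild type larvae.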

How the results depend on the processing

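The low series count of 212 probes was 504 with larvae only, 48 with the 2 groups alone, 1117 with array weights, 1028 at a threshold of 0.05, 696 in a fit of 22 samples with a mean for each group and series, 81 genes when probes of a gene were averaged, and 2 with dye as a covariate. The share of higher probes was then 67.7%, 68.8%, 52.6%, 51.8%, 52.2%, 66.7% and 50%, against 66%. Leaving out 1 sample gave 2 to 5 probes (2 without overexpressing larva 2, 5 without 3, 2 without wild type larva 1 and 2 without 2). The count of 309 against all wild type larvae was 164 with the 2 groups alone, 1160 with array weights, 841 at 0.05, 149 genes with the mean of probes, 33 with dye as a covariate, 484 with number series as a block, and 654 with that block within each stage, the last chosen after seeing the data. Leaving out 1 sample gave 94 to 240 probes (94 without overexpressing larva 2, 98 without 3, 206 to 240 without a wild type larva). With larvae only it was 302 with 52.6% higher, and over all 24 samples 240 with 32.9% higher, against 64.4%.

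Over all 24 samples the differences of CG6738, Ilp5, LBR, dia and Cyp6a17 reversed, to -0.056, -0.35, -0.97, -0.36 and -0.25, with larvae 69 and 70 in the group mean. Top1 reversed to 0.0053 with the mean of its 6 probes, of which 1 was called. The cause of the other shifts was not tested. Quantile normalization (221 and 309 probes), equal medians (212 and 309) and leaving out dim probes (202 and 309) kept the counts within 1.5 times.

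Sample numbers shared between groups are no stated pairs. With the number as a replicate block 199 probes were called in the low series, all of them among the 212, and 432 against all wild type larvae. Depth per spot cannot be given from these values.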
